A study of Danio rerio with 12 samples.

Results

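Expression of 10 genes that mark the liver of the zebrafish larva was followed in whole-larva RNA-seq: fabp10a, tfa, ttr, ambp, fga, fgb, fgg, serpina1, apoa2 and rbp4. They were chosen by name, and 10 of 10 names matched 1 row each of the 32349 genes in the joined data. The 12 libraries were each made from total RNA of 25 pooled zebrafish (Danio rerio) at 3 days post fertilization, with 3 libraries in each of 4 groups. The groups were larvae with the Tg(ifih1_mut) transgene given poly I:C, Tg(ifih1_mut) larvae without it, control larvae given poly I:C, and control larvae without it. Tg(ifih1_mut), here ifih1mut, concerns ifih1, the gene of the double-stranded RNA sensor MDA5, and poly I:C is a synthetic double-stranded RNA. The sources used here name neither the promoter of the transgene, nor the control strain, nor how much poly I:C was given, by which route and for how long. They do not say whether pools were separate clutches either, so a p-value here covers the spread between pools, which may be technical.

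The liver makes most of the proteins that circulate in blood plasma. Hepatocytes transcribe genes for transport proteins, clotting factors, protease inhibitors and apolipoproteins at high levels, and in zebrafish these transcripts are used as liver markers from the first days of life. The yolk syncytial layer, which feeds the larva from the yolk, also transcribes apolipoprotein genes. In mammals, inflammation changes the plasma protein output of the liver: fibrinogen and alpha-1-antitrypsin are among the proteins that increase in the acute phase, and transferrin, transthyretin and retinol-binding protein are among those that decrease. All but fabp10a encode secreted proteins. The product of fabp10a binds fatty acids and bile acids inside the hepatocyte, so the name liver secreted protein genes does not hold for it.

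Levels are given in CPM, which scales each gene's count to its library's total, adjusted by TMM (trimmed mean of M-values). Library totals lay between 31876869 and 100839015 counts, and the 10 genes held from 67 counts (ttr) to 464895 counts (apoa2) in a library. All libraries with poly I:C lay between 32253177 and 37361779 counts. Of those without it, A76, A77, A81 and A82 lay between 53403950 and 100839015, and A75 and A83 had 34497993 and 31876869. Depth thus went partly with poly I:C, and its part in the comparisons was not tested. The ifih1 transcript was higher in the ifih1mut pools, as labelled, at 25.4 ± 7.90 CPM in ifih1mut pools with poly I:C, 14.05 ± 2.99 in ifih1mut pools, 2.06 ± 0.173 in control pools with poly I:C and 2.34 ± 0.376 in control pools (SD, n = 3 each). Libraries are named by the number in the deposited column names (A72 to A83), since these do not carry the replicate number of the titles. By the position of that number in its group, they form 3 library sets of 4, each with 1 library of every group, and libraries of a set were known from earlier results of these data to vary together. In whole larvae, fewer liver cells and less RNA per cell cannot be told apart. Nor can transcripts of the liver be told from those of other tissues, such as apolipoprotein transcripts of the yolk syncytial layer. Counts of serpina1 are uncertain where reads are shared with its close relative serpina1l.

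All 10 transcripts were detected in every library, over a wide range of levels. Per kilobase of the deposited gene length, apoa2, an apolipoprotein of high-density lipoprotein, had the highest mean at 4065 ± 913 CPM per kb (SD, n = 12) and ranked 8 of 26508 genes tested. It was followed by rbp4, the plasma carrier of retinol, at 807 ± 186 CPM per kb and by tfa, the iron carrier transferrin, at 324 ± 44.8 CPM per kb. Those levels did not overlap in any library: rbp4 was never above 1260 or below 641 CPM per kb, and tfa lay between 246 and 386. Then serpina1 (114 ± 31.9), fabp10a (103 ± 34.2), fgb (99.5 ± 16.5) and fga (94.9 ± 13.6 CPM per kb) lay close together and did not differ beyond their spread. Lower were fgg (40.5 ± 6.23), ambp (21.1 ± 2.22) and ttr (4.90 ± 1.68 CPM per kb), without overlap between them over the 12 libraries. The transthyretin gene ttr thus stood 10 of 10 in level. The sum of the 10 was 6467 to 7286 CPM in ifih1mut pools with poly I:C, 7019 to 11205 CPM in ifih1mut pools, 7274 to 8752 CPM in control pools with poly I:C and 7127 to 9436 CPM in control pools. Of that sum, apoa2, rbp4 and tfa held 85.6% to 89.6% in the 12 libraries.

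**Figure D1:**
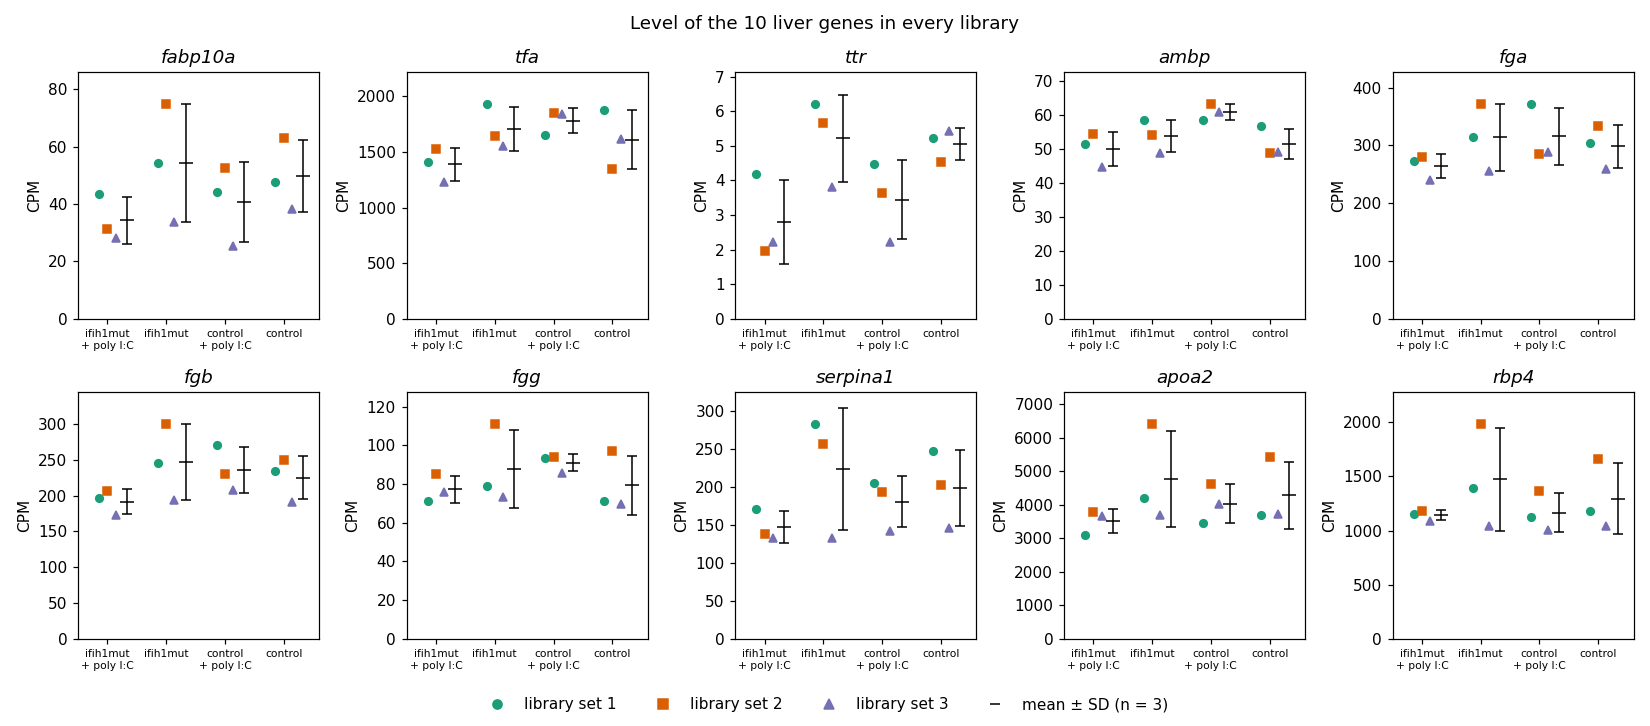
Level of each of the 10 liver genes in CPM (vertical axes, from 0) in every library of the 4 groups (horizontal axes); points are libraries, shaped and coloured by library set, and bars are mean ± SD (n = 3). For tfa, ambp, fga, fgb and fgg the 3 ifih1mut pools with poly I:C all lie below the 3 control pools with poly I:C.

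Among the transport proteins, tfa (ENSDARG00000016771, chromosome 2, 16780643 to 16794710 in the deposited coordinates, plus strand, build not given in the sources used here) was at 1409, 1527 and 1232 CPM in ifih1mut pools with poly I:C (A72, A73, A74), 1932, 1648 and 1553 CPM in ifih1mut pools (A75, A76, A77), 1652, 1850 and 1844 CPM in control pools with poly I:C (A78, A79, A80) and 1877, 1344 and 1617 CPM in control pools (A81, A82, A83). The stimulated ifih1mut pools lay wholly below both the unstimulated ifih1mut pools and the stimulated control pools, and overlapped the unstimulated control pools. The gene ambp (chromosome 10, 10801564 to 10824286) encodes a precursor that is cut into alpha-1-microglobulin, a small carrier of heme, and bikunin, a protease inhibitor. In the same order of libraries, it was at 51.3, 54.2 and 44.5 CPM in ifih1mut pools with poly I:C, 58.5, 53.9 and 48.9 CPM in ifih1mut pools, 58.4, 63.2 and 60.8 CPM in control pools with poly I:C and 56.6, 48.7 and 49.0 CPM in control pools. Stimulated control pools were thus wholly above the stimulated ifih1mut pools and wholly above the unstimulated control pools.

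Transthyretin, the product of ttr (chromosome 20, 6142433 to 6157942), carries thyroid hormone. Its transcript was at 4.19, 1.97 and 2.23 CPM in ifih1mut pools with poly I:C, 6.21, 5.66 and 3.81 CPM in ifih1mut pools, 4.48, 3.63 and 2.23 CPM in control pools with poly I:C and 5.22, 4.53 and 5.42 CPM in control pools. The 3 stimulated control pools lay below the 3 unstimulated ones, narrowly between A78 and A82, and in the ifih1mut larvae A72 overlapped with A77. The retinol carrier rbp4 (chromosome 12, 5115929 to 5120339) was at 1154, 1181 and 1090 CPM in ifih1mut pools with poly I:C, 1396, 1983 and 1044 CPM in ifih1mut pools, 1128, 1363 and 1009 CPM in control pools with poly I:C and 1181, 1665 and 1041 CPM in control pools. Its groups overlapped in each comparison, and its highest library in each group was the one of set 2 (A73, A76, A79, A82).

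The apolipoprotein gene apoa2 (chromosome 16, 23978978 to 23980354) had the same highest libraries as rbp4. It was at 3093, 3781 and 3666 CPM in ifih1mut pools with poly I:C, 4209, 6401 and 3680 CPM in ifih1mut pools, 3445, 4617 and 4031 CPM in control pools with poly I:C and 3696, 5428 and 3711 CPM in control pools. On the same chromosome, fabp10a (52512025 to 52516915) was at 43.6, 31.3 and 28.0 CPM in ifih1mut pools with poly I:C, 54.3, 74.8 and 33.9 CPM in ifih1mut pools, 44.2, 52.5 and 25.2 CPM in control pools with poly I:C and 47.6, 63.1 and 38.1 CPM in control pools. Neither gene separated any of the groups compared. Alpha-1-antitrypsin, encoded by serpina1 (chromosome 20, 10544100 to 10547411), inhibits neutrophil elastase. Its transcript was at 171, 138 and 133 CPM in ifih1mut pools with poly I:C, 283, 257 and 133 CPM in ifih1mut pools, 205, 194 and 142 CPM in control pools with poly I:C and 247, 203 and 147 CPM in control pools. Its level was lowest in the library of set 3 in each of the 4 groups.

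Fibrinogen is built from the alpha, beta and gamma chains encoded by fga, fgb and fgg, and thrombin turns it into fibrin in a clot. In the deposited coordinates all 3 genes lie on chromosome 1. The genes fgb (10051763 to 10059496, plus strand) and fga (10063501 to 10071539, minus strand) are 4004 bases apart, and fgg (25669799 to 25679383, minus strand) lies 15598259 bases beyond fga. The fga transcript was at 274, 280 and 241 CPM in ifih1mut pools with poly I:C, 314, 371 and 256 CPM in ifih1mut pools, 372, 286 and 289 CPM in control pools with poly I:C and 304, 333 and 259 CPM in control pools. The fgb transcript was at 196, 206 and 172 CPM in ifih1mut pools with poly I:C, 246, 300 and 194 CPM in ifih1mut pools, 271, 230 and 207 CPM in control pools with poly I:C and 235, 250 and 191 CPM in control pools. For fgg the levels were 71.3, 84.9 and 75.8 CPM in ifih1mut pools with poly I:C, 79.1, 111 and 73.1 CPM in ifih1mut pools, 93.5, 93.7 and 85.8 CPM in control pools with poly I:C and 71.2, 97.0 and 69.5 CPM in control pools. For each chain, the 3 stimulated ifih1mut pools lay below the 3 stimulated control pools, by less than 2 CPM between A73 and A80 for fgb and between A73 and A80 for fgg.

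The alpha and beta chain transcripts kept a near equal ratio per kilobase. The ratio of fga to fgb was between 0.891 and 1.00 in the 12 libraries, with a median of 0.968. The ratio of fgg to fgb was lower and varied more, between 0.331 and 0.480 with a median of 0.408. It was 0.397, 0.450 and 0.480 in ifih1mut pools with poly I:C, 0.352, 0.404 and 0.413 in ifih1mut pools, 0.377, 0.444 and 0.452 in control pools with poly I:C and 0.331, 0.424 and 0.398 in control pools. In each of the 4 groups the lowest ratio was that of the library of set 1 (A72, A75, A78, A81). These ratios rest on the deposited gene lengths, which can differ from the lengths of the transcripts made in the larva.

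**Figure D2:**
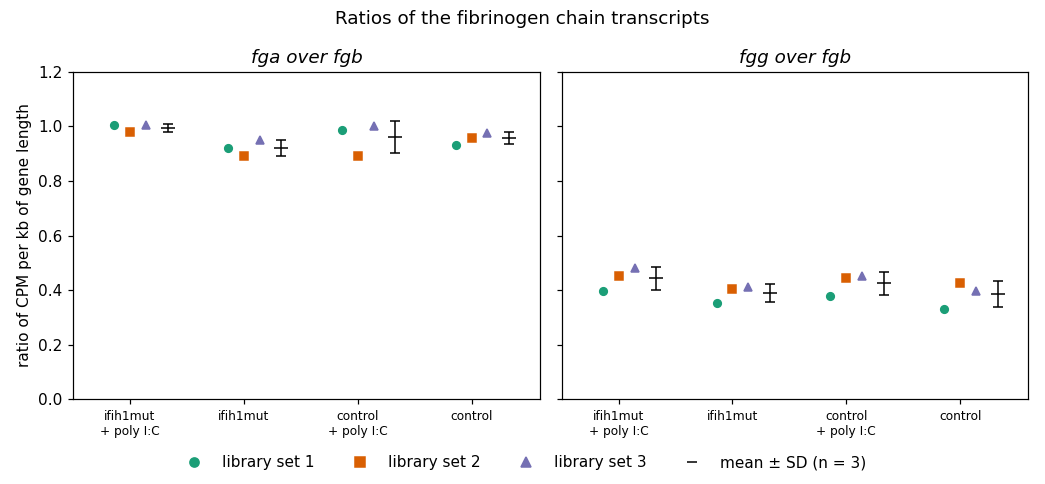
Ratio of fga to fgb (left) and of fgg to fgb (right) in CPM per kb of deposited gene length, by group, with points for libraries and bars for mean ± SD (n = 3). The left ratio stays between 0.891 and 1.00, and the right one between 0.331 and 0.480 with set 1 lowest in each group.

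Under poly I:C, the ifih1mut pools had lower estimates than the control pools for 10 of 10 liver genes, but no single gene passed the test. The log2 fold changes, ifih1mut over control, ran from -0.36 to -0.03 with a median of -0.27, against a median of -0.0046 over all 26508 genes, of which 51.1% had a negative value. The iron carrier tfa averaged 1389 ± 149 CPM against 1782 ± 112 CPM (SD, n = 3 each), a log2 fold change of -0.36 (SE 0.14, edgeR adjusted p = 0.978). The fibrinogen beta chain fgb averaged 191 ± 17.2 CPM against 236 ± 32.0 CPM (log2 -0.30, SE 0.16, edgeR adjusted p = 1; -0.19 without A78). For ttr the averages were 2.79 ± 1.22 CPM against 3.45 ± 1.14 CPM (log2 -0.30, SE 0.33, edgeR adjusted p = 1), and its estimate lay between -0.71 (without A72) and -0.07 (without A78) when each library was left out in turn, with -0.10 without A73, -0.16 without A74 and -0.54 without A80. The weakest difference was that of rbp4, at 1142 ± 46.7 CPM against 1167 ± 180 CPM (log2 -0.03).

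In that comparison 0 of 10 liver genes passed an adjusted p under 0.05 in edgeR or in DESeq2, where 0.6% of all genes passed in edgeR. At an unadjusted p under 0.05 there were 2 of 10, tfa and ambp, in edgeR and 2 of 10 in DESeq2, beside 992 genes or 3.74% of all in edgeR. The stimulated ifih1mut pools lay wholly below the stimulated control pools in 5 of 10 liver genes (tfa, ambp, fga, fgb and fgg), which was the case for 3.2% of all genes. Within the library sets, 8 of 10 were lower in each of the 3 sets, against 13.1% of all genes; the exceptions were fabp10a, with log2 ratios of -0.02, -0.74 and 0.15 in sets 1, 2 and 3, and rbp4, with 0.03, -0.21 and 0.11. For tfa the ratios were -0.23, -0.28 and -0.58, and for fgb -0.47, -0.16 and -0.27, on the log2(CPM + 0.5) scale. Liver genes were read in the same libraries and share hepatocytes as a source, so these counts are not counts of independent genes. The count of negative estimates was 9 without A74 or A79 and 8 without set 2. In the authors' deposited table for this comparison the lowest adjusted p among the 10 was 0.386, for tfa.

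Against unstimulated ifih1mut pools, stimulated ifih1mut pools also had lower estimates for 10 of 10 liver genes, with a median log2 fold change of -0.37 against -0.012 over all genes. The median was -0.18 without A76 and -0.24 without set 2. This comparison shares the stimulated ifih1mut pools with the one above. The lowest value was that of ttr, at 2.79 ± 1.22 CPM with and 5.23 ± 1.26 CPM without poly I:C (SD, n = 3 each; log2 -0.90, SE 0.32, edgeR adjusted p = 0.897). The hepatocyte binding protein gene fabp10a averaged 34.3 ± 8.23 CPM with and 54.3 ± 20.5 CPM without poly I:C (log2 fold change -0.66 with SE 0.33, adjusted p = 1.00 in edgeR). For serpina1 the averages were 147 ± 20.8 CPM with and 224 ± 80.4 CPM without poly I:C (log2 fold change -0.61 with SE 0.27, adjusted p = 1.00 in edgeR). Within sets 1, 2 and 3 the log2 ratios were -0.52, -1.32 and -0.66 for ttr, -0.31, -1.24 and -0.27 for fabp10a, and -0.72, -0.90 and 0.00064 for serpina1. The unstimulated A77 was as low in serpina1 as the stimulated pool of its set.

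Of the 10 liver genes, 0 passed in edgeR or DESeq2 in this comparison, beside 0.69% of all genes in edgeR. At an unadjusted p under 0.05 there were 4 of 10 in edgeR (tfa, ttr, fgb and serpina1) and 5 of 10 in DESeq2, with 3.64% of all genes in edgeR. The groups were apart in 1 of 10, tfa, with the stimulated pools wholly lower, as in 2.75% of all genes. In each of the 3 sets, 6 of 10 were lower (fabp10a, tfa, ttr, fga, fgb and apoa2), against 12.1% of all genes. The estimate of fabp10a was -0.36 without A76, and that of serpina1 was -0.39 without A75. Without A76 the count of negative estimates was 9.

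In control larvae, poly I:C went with no common direction of the liver genes: 5 of 10 had a positive and 5 a negative estimate, with a median of -0.0088. The stimulated control pools had 3.45 ± 1.14 CPM of ttr and the unstimulated ones 5.06 ± 0.467 CPM (SD, n = 3 each; log2 -0.55, SE 0.32, edgeR adjusted p = 1), and the estimate was -0.32 without A80. For fabp10a the levels were 40.7 ± 13.985 CPM with and 49.6 ± 12.6 CPM without poly I:C (log2 fold change -0.29 with SE 0.32, adjusted p = 1 in edgeR), and the estimate was -0.52 without A79, -0.44 without A83, -0.08 without A82 and -0.04 without A80. The largest positive estimate was that of ambp, at 60.8 ± 2.38 CPM with and 51.4 ± 4.48 CPM without poly I:C (log2 fold change 0.24 with SE 0.10, adjusted p = 1 in edgeR). No liver gene passed in edgeR or DESeq2 (0 of 10 in each), nor did any other gene in edgeR (0%). At an unadjusted p under 0.05 stood ambp, 1 of 10 in either tool, and 1.38% of all genes in edgeR and 1.46% in DESeq2. The stimulated pools were wholly above in ambp, as in 2.14% of all genes, and wholly below in ttr, as in 2.32%.

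Without poly I:C, ifih1mut and control pools overlapped in 10 of 10 liver genes. The estimates were positive for 10 of 10, from 0.05 (ttr) to 0.19 (rbp4), with a median of 0.13 against 0.0033 over all genes. That direction depended on single libraries. Without A76, 7 of 10 estimates were negative and the median was -0.05. Negative estimates numbered 4 without A75, 3 without A83, 2 without A82 and 1 without set 1. Without set 2, which holds A76 and the control pool A82, 8 estimates were positive and 2 negative. With the library set as a block, 10 of 10 were positive. The levels of rbp4 were 1474 ± 474 CPM in ifih1mut and 1296 ± 328 CPM in control pools (SD, n = 3 each; log2 0.19, SE 0.23, edgeR adjusted p = 1). For serpina1 they were 224 ± 80.4 and 199 ± 50.5 CPM (log2 0.17, SE 0.27, edgeR adjusted p = 1), and for apoa2 4763 ± 1443 and 4278 ± 996 CPM (log2 0.15, SE 0.22, edgeR adjusted p = 1). Without A76 the estimates were -0.09 for rbp4 and -0.12 for apoa2, and for serpina1 they were -0.04 without A75 and -0.0083 without A83. Of the 10 genes, 0 passed in edgeR or DESeq2, beside 0.00377% of all genes in edgeR, and 0 of 10 had an unadjusted p under 0.05 in edgeR, beside 0.509% of all.

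**Figure D3:**
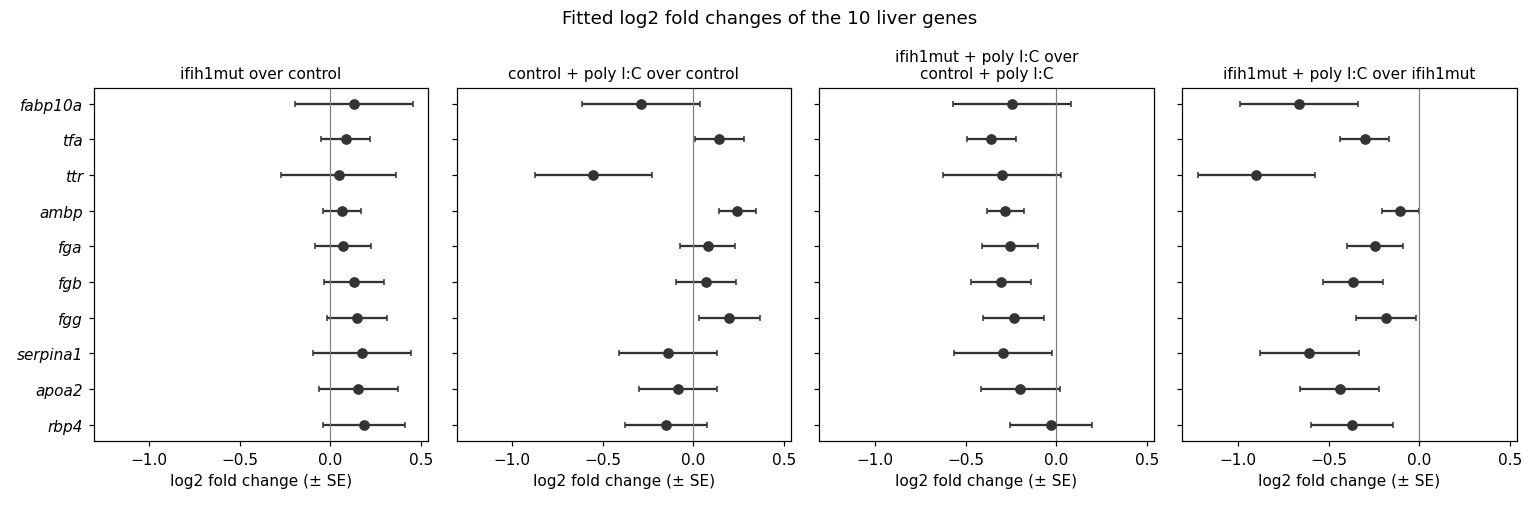
Fitted log2 fold change with its SE (horizontal axes) of each of the 10 liver genes (vertical axis) in 4 comparisons of groups, edgeR on 12 libraries. Estimates are positive in the leftmost panel and negative in the 2 rightmost panels for 10 of 10 genes, and 0 of 10 passed an adjusted p under 0.05 in any panel.

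The effect of poly I:C in ifih1mut larvae minus its effect in control larvae was tested directly as a difference of differences. It was negative for 10 of 10 liver genes, with a median of -0.36 on the log2 scale against -0.0056 over all genes, and 0 of 10 passed in edgeR or DESeq2, beside 0.155% of all genes in edgeR. The largest were serpina1 (-0.47, SE 0.38), tfa (-0.44, SE 0.19) and fgb (-0.43, SE 0.23), each with an edgeR adjusted p of 1.00. The value of serpina1 was -0.26 without A75, -0.28 without A83 and -0.73 without A77, and that of fgb was -0.27 without A76. At an unadjusted p under 0.05 there were 2 of 10 in edgeR, tfa and ambp, and 2 of 10 in DESeq2. Of all genes, 2.04% were under it in edgeR and 1.97% in DESeq2. Without A76 the median was -0.23 and the count of negative differences was 9, and without set 2 it was 8.

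Library sets took a larger share of the variation than groups did in 7 of 10 liver genes. Of the variance of log2(CPM + 0.5) over the 12 libraries, the sets took a median of 51.1% in the 10 liver genes and 36.9% in all genes tested, and the groups took 28.7% and 15.1%. By chance alone 4 groups take a larger share than 3 sets, so the shares of groups and sets are not on the same scale. The share of the sets was highest for rbp4 (60.3%) and serpina1 (57.8%) and lowest for tfa (9.49%), ambp (20.2%) and ttr (24.5%). In those 3 genes the groups took more: 48.9% for tfa, 55.7% for ambp and 56.8% for ttr. The sets were tested with the group as a term in the fit. They had been recognised in these values, so the tests describe their size and are no evidence that sets exist.

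Set 3 had lower estimates than set 2 in 10 of 10 liver genes, with a median log2 fold change of -0.35 against -0.0010 over all genes. In edgeR, 5 of 10 fell, where 8.46% of all genes passed in either direction and 3.54% were lower. The binding protein gene fabp10a was at 28.0, 33.9, 25.2 and 38.1 CPM in set 3 (A74, A77, A80, A83) and 31.3, 74.8, 52.5 and 63.1 CPM in set 2 (A73, A76, A79, A82), lower in 4 of 4 groups (log2 -0.79, SE 0.15, edgeR adjusted p = 0.0134). The retinol carrier rbp4 had 1046 ± 33.3 CPM in set 3 and 1548 ± 352 CPM in set 2 (SD, n = 4 each; log2 -0.54, SE 0.11, edgeR adjusted p = 0.0168), and its sets did not overlap. The protease inhibitor serpina1 fell by 0.48 (SE 0.12, edgeR adjusted p = 0.0366), fgb by 0.36 (SE 0.085, 0.0285) and fgg by 0.35 (SE 0.089, 0.0393) on the log2 scale. The plasma carriers tfa (-0.04), ambp (-0.12) and ttr (-0.21) had the estimates closest to 0 and did not pass. The count of 5 was 0 without A76, A77 or A82, 1 without A83, 2 without A80, 3 without A75 or A81, and 7 in DESeq2. In DESeq2, 3321 of 32349 genes passed, 1512 of them lower.

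Set 1 against the mean of sets 2 and 3 gave no common direction: 7 of 10 liver genes had a positive and 3 a negative estimate, with a median of 0.12. In edgeR, 1 of 10 rose, serpina1, at 227 ± 48.7 CPM in set 1, 198 ± 48.8 CPM in set 2 and 139 ± 6.94 CPM in set 3 (SD, n = 4 each; log2 0.44, SE 0.10, edgeR adjusted p = 0.0134). Of all genes tested 16.6% passed and 9% passed as higher, so the share of the liver genes was near the background. The call of serpina1 was lost without A75 or A81, and 2 of 10 passed without A73, A77 or A83 and 3 of 10 in DESeq2. In DESeq2, 5019 of 32349 genes passed in either direction. For apoa2 the levels were 3611 ± 469 CPM in set 1, 5057 ± 1120 CPM in set 2 and 3772 ± 174 CPM in set 3 (log2 -0.28, SE 0.096, edgeR adjusted p = 0.0782), and for ttr 5.03 ± 0.903, 3.95 ± 1.56 and 3.42 ± 1.53 CPM (log2 0.51, SE 0.17, edgeR adjusted p = 0.0722).

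**Figure D4:**
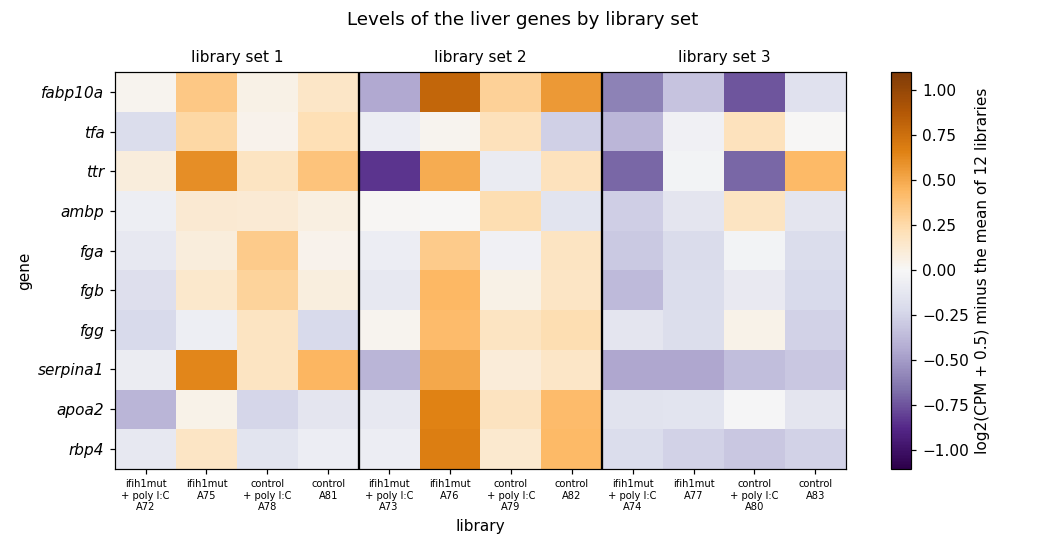
Level of each liver gene (rows) in each library (columns, in blocks by library set), as log2(CPM + 0.5) minus the gene's mean over 12 libraries. The 4 libraries of set 3 are low in fabp10a, serpina1 and rbp4, while A76 of set 2 is the highest library of rbp4, apoa2 and fabp10a.

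Pairs of liver genes differed in how closely they varied together. Over the 12 libraries, Pearson's r of log2(CPM + 0.5) ran from 0.02 to 0.97 in the 45 pairs of genes, with a median of 0.53, and 24 pairs were above 0.5. These correlations are descriptions, since the libraries share sets and groups. Pairs of other genes were not counted, so the 24 pairs have no background beside them. The highest was that of the neighbours fga and fgb (r = 0.97, Spearman's rho = 0.98), and fgg, far from both on the chromosome, had r = 0.75 with fga and 0.76 with fgb. With group and set means removed, the 3 chains were at 0.94 to 0.97 with each other. The carriers tfa and ambp went together (r = 0.86, and 0.98 with the means removed). With the means removed tfa had -0.45 with rbp4, -0.46 with fga and -0.59 with fgg. Group and set terms leave 6 residual degrees of freedom, and whether these values differ from 0 was not tested. Likewise apoa2 and rbp4 were at 0.88 and 0.94, and fabp10a and ttr at 0.78 and 0.86.

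**Figure D5:**
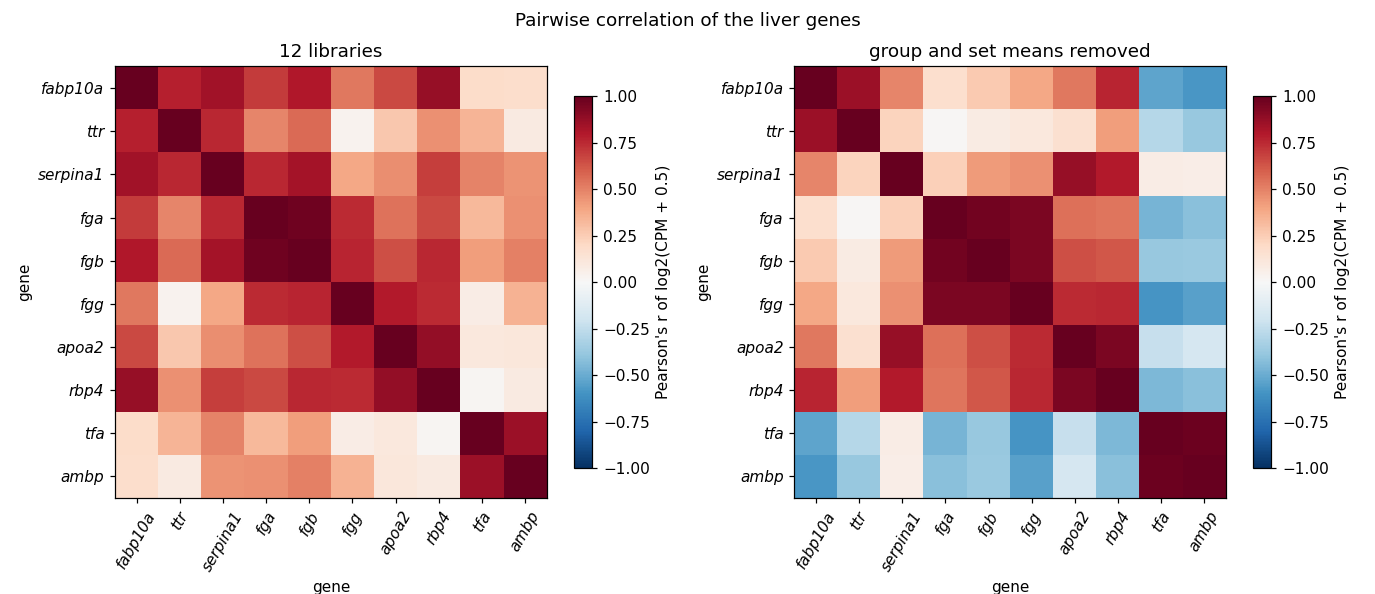
Pearson's r between each pair of liver genes over 12 libraries (left) and after group and library set means were removed (right); red is positive and blue negative. The 3 fibrinogen genes form a block of 0.94 to 0.97 in the right panel, and tfa and ambp pair at 0.98 and are negative against fabp10a and the fibrinogen genes.

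Likeness was ranked among 15614 other genes with an average log2 CPM of 0 or more and a symbol that is no clone or placeholder name. Those most like the mean of the standardised liver genes over 12 libraries were cip2a (r = 0.95), mt-co3 (0.95), acsf2 (0.94) and cyp2aa1 (0.94). Next came haao (0.94), cfhl4 (0.93), cyp2ad3 (0.92) and acaa1 (0.92). Spearman's rho was between 0.90 and 0.95 for these 8 genes. They were picked as the highest of 15614 over 12 libraries that share sets and groups, and such a choice raises the values. With group and set means removed, r lay between 0.52 and 0.84. The gene acsf2 encodes an acyl-CoA synthetase, acaa1 a thiolase of fatty acid oxidation, haao an enzyme of tryptophan breakdown, and mt-co3 a subunit of cytochrome oxidase encoded in the mitochondrion. A common role of the 8 genes was not tested. Of the genes of the other liver lists, prothrombin (f2) at r = 0.90 and plasminogen (plg) at 0.90 ranked 13 and 18. Likeness was not limited to liver lists: the intestine marker slc15a1a ranked 42 (r = 0.87).

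Genes of 5 other liver lists were read in the same fit. The list of coagulation and fibrinolysis factors held 16 gene identifiers, with proca under more than a single identifier. Of these 16, 0 passed in ifih1mut against control under poly I:C, with 14 negative estimates and a median of -0.26. The most abundant, f2, averaged 105 ± 3.72 CPM in stimulated ifih1mut and 126 ± 1.80 CPM in stimulated control pools (SD, n = 3 each; log2 -0.27, SE 0.12, edgeR adjusted p = 1), and plg 83.8 ± 3.98 and 100.5 ± 2.05 CPM (log2 -0.26, SE 0.15, edgeR adjusted p = 1). Of 22 other plasma carriers and protease inhibitors 0 passed, with 14 negative and a median of -0.06. There the protease inhibitor gene fetub averaged 853 ± 162 CPM in stimulated ifih1mut and 757 ± 100.9 CPM in stimulated control pools (log2 0.17, SE 0.20), and serpina1l 332 ± 49.5 and 399 ± 67.7 CPM (log2 -0.26, SE 0.23). Of 17 apolipoproteins 0 passed, with 11 negative and a median of -0.06, and apoa1b, the major protein of high-density lipoprotein, had a log2 fold change of -0.06 (SE 0.18). Of 28 genes in the hepatocyte enzyme list 0 passed, with 22 negative and a median of -0.12. That list also holds fabp1b.1, a fatty acid binding protein gene and no enzyme. In it bhmt, an enzyme of methionine metabolism, had -0.15 (SE 0.13). Of 18 liver transcription factors 0 passed, with 12 negative and a median of -0.09. The factors cebpb and cebpa, which drive genes of the acute phase and of the mature hepatocyte in mammals, had 0.25 (SE 0.22) and -0.07 (SE 0.11).

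Between stimulated and unstimulated ifih1mut pools, 26 of 28 genes of the hepatocyte enzyme list had negative estimates (median -0.31). So did 15 of 16 coagulation factor identifiers and 14 of 17 apolipoproteins, with medians of -0.25 and -0.10. None of those 3 lists had a gene past the threshold in edgeR (0 of 28, 0 of 16 and 0 of 17). The other plasma carriers and protease inhibitors had 14 of 22 negative (median -0.075, 0 passed). Liver transcription factors had 13 of 18 negative (median -0.082, 0 passed), and of all genes 53.5% were negative. With the library set as a block, agxtb, which encodes a glyoxylate transaminase, passed: it averaged 76.96 ± 16.8 CPM in stimulated and 125 ± 23.9 CPM in unstimulated ifih1mut pools (SD, n = 3 each; log2 -0.70, SE 0.11, edgeR adjusted p = 0.00864), where 1.04% of all genes passed and 0 of the 10 liver genes did. The block likewise left 0 of 10 in ifih1mut against control under poly I:C, where 0.883% of all genes passed with it.

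Genes of other gut organs moved with some of these values, and their part in them was not tested. Summed exocrine pancreas markers were at 302 to 396 CPM in ifih1mut pools with poly I:C, 422 to 784 CPM in ifih1mut pools, 328 to 519 CPM in control pools with poly I:C and 342 to 625 CPM in control pools. Between stimulated and unstimulated ifih1mut pools, 15 of 16 exocrine pancreas markers and 12 of 13 intestine markers had negative estimates, with medians of -0.66 and -0.38, and 0 of either list passed in edgeR. With the library set as a block, 3 of the 16 pancreas markers fell: cel.1 (log2 -1.05, SE 0.18, edgeR adjusted p = 0.0179), prss59.2 (-0.61, SE 0.11, 0.0307) and ela3l (-0.85, SE 0.16, 0.0397), all digestive enzyme genes. Of all genes, 1.04% passed with that block in either direction. In control larvae, poly I:C went with negative estimates for 14 of 16 pancreas and 12 of 13 intestine markers, with medians of -0.28 and -0.57, and 0 of either passed. The highest library of the pancreas sum was A76, also the highest in rbp4, apoa2 and fabp10a. Against set 2, set 3 was lower in 8 of 16 pancreas markers and in 4 of 13 intestine markers in edgeR. Of the endocrine pancreas markers 1 of 10 was lower, neurod1, where 3.54% of all genes were lower. Its mean was 161 CPM against 1.57 CPM for ins of the same list, and its tissue of origin in whole larvae was not tested. Under poly I:C, ifih1mut against control had 15 of 16 negative estimates in the exocrine pancreas markers and 5 of 13 in the intestine markers, with medians of -0.17 and 0.04, and 0 of either list passed. Interferon-stimulated genes, 15 in the list, summed to 813, 629 and 1715 CPM in the stimulated ifih1mut pools A72, A73 and A74, and to between 56.6 and 80.4 CPM in the other 9 libraries. In these 3 pools the mean of the standardised liver genes was -0.54, -0.52 and -1.23. A74 is of set 3, whose library had the lowest liver mean in each of the 4 groups (-0.71, -0.31 and -0.55 for A77, A80 and A83). A link between the interferon-stimulated genes and the liver genes was not tested.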

How the data were processed

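Per the file headers, the authors deposited 3 tables with raw counts per gene for 6 libraries each, gene lengths, and their log2 fold change, p-value and adjusted p-value per comparison. The sources used here do not name the aligner, counter, strand setting, genome build or test behind them. The 36 columns of normalized values per library were not used. Tables were joined by gene identifier (32349 genes; 0 of 187002 repeated counts differed), and 6372 missing values were set to 0. Counts were filtered with filterByExpr (minimum count 10, minimum total 15; 26508 genes, all 10 liver genes among them), normalised by TMM and tested across all genes by quasi-likelihood in edgeR (version 4.0.16, R version 4.3.3), using Benjamini-Hochberg adjustment and a threshold of 0.05. One coefficient was fitted per group over 12 libraries, leaving 8 residual degrees of freedom, for 5 comparisons. Sets were compared in a fit with group and set as terms (6 residual degrees of freedom). SE is the log2 fold change over the root of F. The fit was run on simulated counts without library set effects, with known fold changes larger than any liver gene estimate of the main fit. It does not show whether changes as small as those of the liver genes would pass. Alternatives were RLE, DESeq2 1.42.0, other filters, only the groups compared, a set block, and leaving out each set or library. Liver genes, 9 other lists (159 of 178 symbols matched) and library sets were chosen with earlier results of these data known. Fold changes are given for genes past the threshold and for the 3 liver genes with the largest estimate of a comparison, other values by count or range; of the other lists, up to 4 genes past the threshold or the 2 most abundant were eligible to be named, and not all are printed. Sequences were not used here.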

Additional observations from a re-analysis of the deposited data

How the results depend on the processing

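The count of liver genes past the threshold was 0 in each of the 5 comparisons of groups under all 104 alternatives run for them. No paired analysis was possible because the deposited columns do not carry the replicate numbers of the titles. This concerns those numbers alone. A block for library sets, a grouping by the numbers in the column names, was fitted and changed no call of a liver gene. The median of ifih1mut against control under poly I:C was -0.26 with it, and the unadjusted p in edgeR was under 0.05 in 5 of 10 instead of 2 of 10. The share of all genes at that level rose too, from 3.74% to 6.52%. Between stimulated and unstimulated ifih1mut pools, 7 of 10 instead of 4 of 10 were under 0.05, beside 7.21% instead of 3.64% of all genes. The lowest edgeR adjusted p of a liver gene there was 0.150 with the block and 0.897 without it. For the difference of differences the count was 4 of 10 instead of 2 of 10, beside 3.72% instead of 2.04% of all genes. In control larvae poly I:C gave 2 of 10 instead of 1 of 10, beside 3.98% instead of 1.38% of all genes. For ifih1mut against control it was 0 of 10 in both fits, beside 1.32% instead of 0.509% of all genes. For set 3 against set 2, the count of 5 ranged from 0 to 6 with each library left out. For set 1 against sets 2 and 3, the count of 1 was 3 in DESeq2, where 5019 of 32349 genes passed. It ranged from 0 to 2 with each library left out. Without poly I:C, the estimates of ifih1mut against control ranged with 1 library left out from -0.12 to 0.36 for apoa2, from -0.091 to 0.41 for rbp4 and from -0.036 to 0.43 for serpina1. The cause was not tested. Depth limits ttr most, at 67 counts in its lowest library.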
